A study of Homo sapiens with 4 samples.

Results

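Nuclear-encoded subunits of the mitochondrial ATP synthase were followed in a study of the RNAs bound by LARP4, a La-related RNA-binding protein, in HEK293 cells, an established line from human embryonic kidney. The genes are ATP5A1, ATP5B, ATP5D, ATP5E, ATP5G1, ATP5G2, ATP5G3, ATP5O and ATP5I, 9 in all, each taken as a fixed window on its own strand of hg19. Binding was measured by enhanced crosslinking and immunoprecipitation (eCLIP), in which ultraviolet light links a protein to the RNA it touches, an antibody recovers it, and the attached fragments are sequenced. A size-matched input, made without the antibody, is sequenced in parallel. There were 2 LARP4 eCLIP replicates and 2 size-matched inputs, all from HEK293 cells with no other treatment than 400 mJ/cm2 of light at 254 nm. The names of the authors' interval lists carry the label WT. The labels call the replicates biological. The inputs enter only as the denominator of the authors' values. The windows held 130 of 171755 clusters (stretches of piled-up reads) in replicate 1, 133 of 191899 in replicate 2, and 84 of the 7153 regions in the authors' list for the whole series. All positions are hg19, counted from 1. The values are ratios over input, so the HEK293 label cannot be checked against expressed markers.

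The ATP synthase turns the proton gradient across the inner mitochondrial membrane into ATP. Its F1 head carries out catalysis, a ring of c subunits turns in the membrane, and a peripheral stalk holds the head still. The subunits described here are translated in the cytosol and imported, whereas a few membrane subunits are encoded by mitochondrial DNA. LARP4 is known as a protein that associates with poly(A) and with poly(A)-binding protein and protects mRNAs from decay.

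LARP4 eCLIP was enriched over input in all 9 genes, in both replicates. A cluster is called enriched here when the authors' log2 fold over input is at least 3 (8-fold) and their −log10 p at least 3. In replicate 1, 78 of the 130 clusters passed, or 60.0% (Wilson 95% interval 51.4 to 68.0), where 5.01% of all clusters in that list did. In replicate 2, 89 of 133 passed, or 66.9% (58.5 to 74.3), where 5.5% of all clusters did. The intervals treat clusters as independent and cover counting error only, and neighbouring clusters of a gene are not independent. By bases, 59.8% and 65.4% of the covered length in the windows was enriched, against 6.22% and 7.05% in the whole lists. The median log2 fold of the clusters was 3.29 and 3.39, against 1.28 and 1.30 over all clusters. Only 1 cluster in replicate 1 and 3 in replicate 2 lay below input, where 11.6% and 11.2% of all clusters did. No test of the genes as a list was made, because they were chosen with results of these data known.

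Clusters that were enriched in the first culture mostly recurred in the second. An overlapping replicate 2 cluster was present for 123 of the 130 clusters in replicate 1. Of such pairs, 71 were enriched in both replicates, or 57.7%, where 6.51% of all overlapping pairs were. Enrichment was limited to replicate 1 in 4 pairs and to replicate 2 in 14, and 34 pairs had none. Thus 94.7% of the paired clusters enriched in replicate 1 were also enriched in replicate 2, where the share over the whole lists was 66.7%. The SD of a single replicate's log2 fold, from the differences within pairs, was 0.50. Each of the 9 genes had pairs enriched in both replicates, from 2 in ATP5E to 13 in ATP5G2.

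All 84 series-wide regions of the windows had an overlapping cluster in both replicates, and 75 of them had an enriched cluster in each. That list is the authors' own combination of these replicates, so the overlap is not separate evidence of recurrence. The same shares over all 7153 regions were not computed. The 84 regions were spread over all 9 genes, with 42 in the 3 genes for subunit c, 26 in the 4 genes for F1 subunits, 10 in ATP5O and 6 in ATP5I. The pieces are short, with a median width of 31 bases, and many touch. Joined where they touched, they formed 46 stretches. The authors' log2 fold had a median of 3.76 and reached 6.21, against a median of 3.65 over all 7153 regions. For scale, among loci where both replicates had clusters, 7.9% held any region. A locus is a run of clusters on 1 strand with no gap above 5 kb. The loci of the 9 genes had 12 to 54 clusters over both replicates. Of all 7638 loci in that range, 18.9% held a region, 8.1% held at least 3, 3.47% at least 6 and 1.14% at least 10. The loci of the 9 genes held from 3 to 18.

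**Figure D1:**
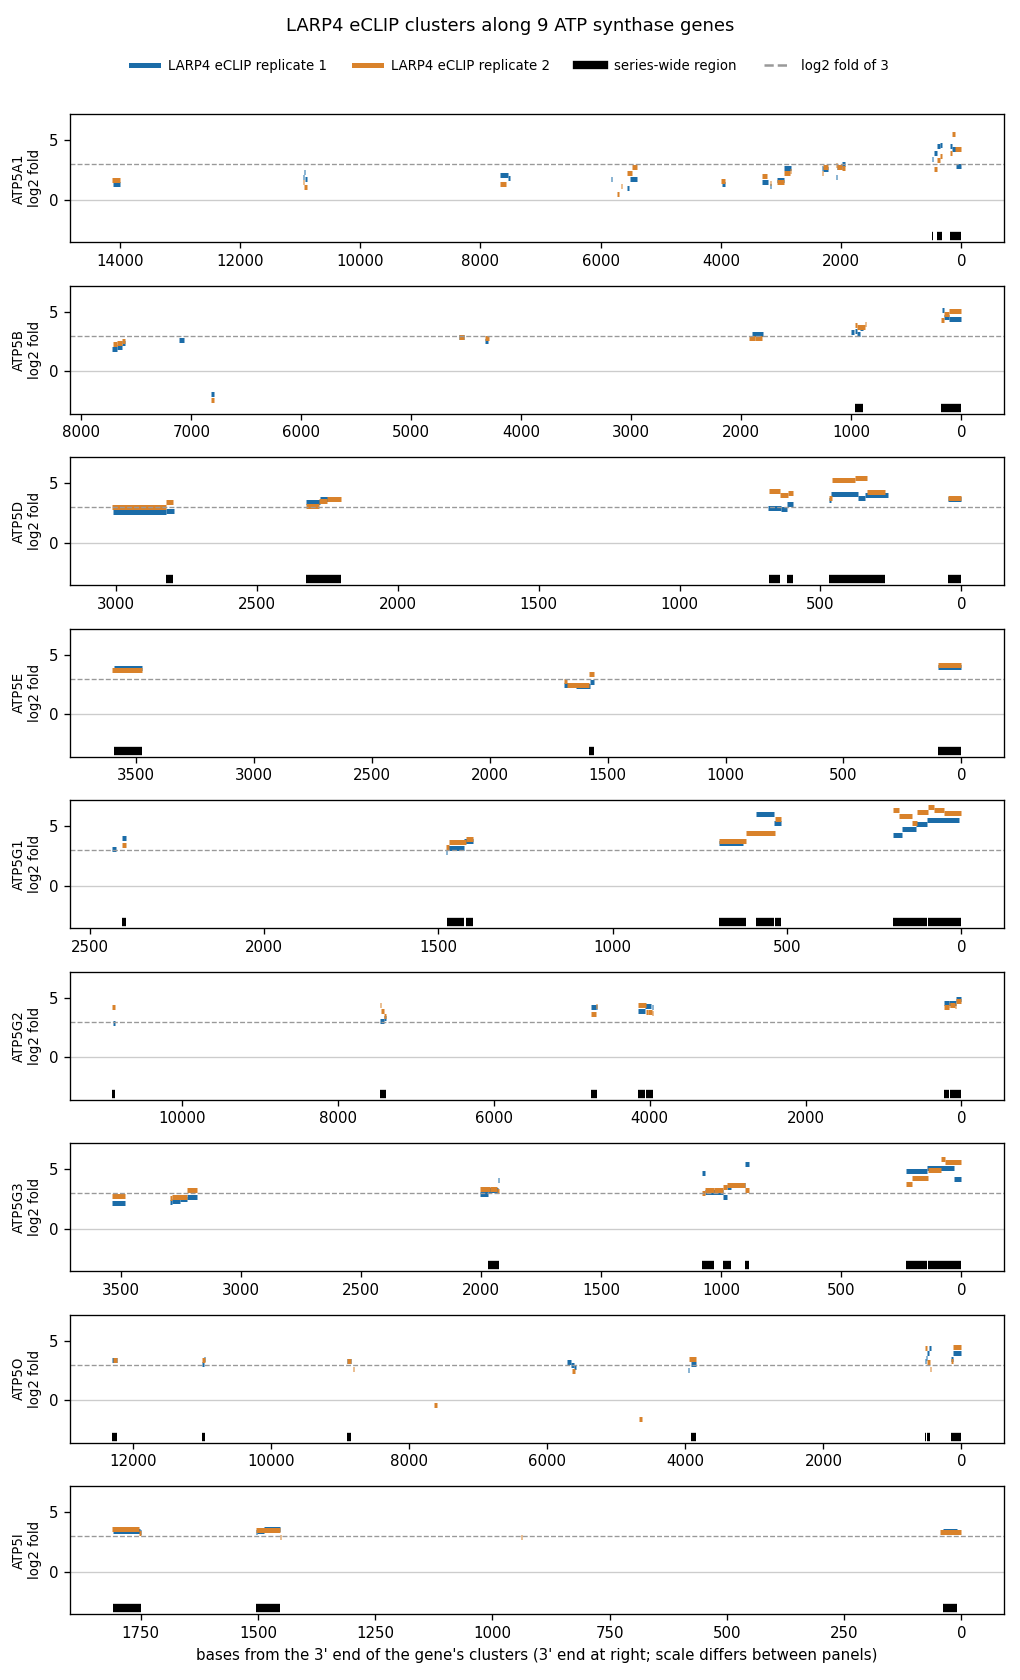
Each panel is a gene, with the authors' log2 fold over input on the vertical axis and the distance in bases from the 3′ end of the gene's clusters on the horizontal axis (3′ end at right, scale differing between panels). Blue and orange bars are single clusters of replicates 1 and 2, black bars are series-wide regions, and the dashed line marks a log2 fold of 3. Black bars stand at the right edge in all 9 panels, are confined to that side in ATP5A1 and ATP5B, and run along the length of ATP5G1 and ATP5G2.

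The F1 head contains the α and β subunits, which carry the nucleotide-binding sites. ATP5A1 (current symbol ATP5F1A) encodes α. Its enrichment lay within the last 500 bases of a 14120-base run of clusters on the minus strand of chromosome 18. There were 27 clusters in each replicate, of which 6 and 5 were enriched. The region at 43664253 to 43664299 had log2 folds of 4.24 in replicate 1 and 5.53 in replicate 2, or 4.89 ± 0.91 (SD, n = 2). Next to it, 43664300 to 43664330 had 4.48 and 3.89. Upstream, 43664469 to 43664491 had 4.57 and 3.70, and 43664492 to 43664541 had 4.50 and 3.30. The last 3′ region, 43664141 to 43664252, was enriched in replicate 2 alone (2.83 and 4.29), and 43664606 to 43664620 in replicate 1 alone (3.40 and 2.65). These 6 regions cover 278 bases in 3 stretches.

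Upstream of that end, the α subunit gene had clusters above input that did not reach the threshold. At 1000 bases or more from the 3′ end it had 20 clusters in each replicate, with no enriched cluster in either. With 3 counts as the bound for a count of 0, the share could be as high as 15%. That bound treats clusters as independent, which neighbouring clusters of a gene are not. The upstream clusters had width-weighted means of 1.95 and 1.96 on the log2 scale, and the highest were 2.99 and 2.93. The cluster at the 5′ end had the values 1.28 and 1.65. So ATP5A1 combined the lowest mean of the 9 genes with an enriched 3′ end.

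ATP5B (ATP5F1B) encodes the catalytic β subunit, and its regions formed only 2 stretches on the minus strand of chromosome 12. The 3′ stretch was the region of 114 bases at 57032024 to 57032137, with log2 folds of 4.38 and 5.05, its neighbour at 57032138 to 57032184, with 4.58 and 4.86, and 57032185 to 57032205, with 5.13 and 4.32. The 114-base region reached the −log10 p ceiling of 400 in each replicate. The second stretch began 894 bases from the 3′ end. It held 3 touching regions. From the 3′ side, 57032918 to 57032943 had log2 folds of 3.60 and 3.71, followed by 3.17 and 3.71 at 57032944 to 57032975. The last, 57032976 to 57032991, had 3.39 and 3.86. In replicate 2 a single cluster lies behind both values of 3.71.

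Over the rest of ATP5B the folds were lower. At 1000 bases or more from the 3′ end, 1 of 10 clusters in replicate 1 and 0 of 9 in replicate 2 were enriched, with width-weighted means of 2.21 and 2.29. By the same bound, which treats clusters as independent, 0 of 9 leaves room for a share of 33.3%. The enriched cluster, at 57033825 to 57033925, had 3.13 in replicate 1. In replicate 2 that stretch was split in clusters at 2.80 and 2.77. A short cluster, 893 and 894 bases from the 5′ end, was below input in both replicates, at −1.97 (57038815 to 57038846) and −2.44 (57038820 to 57038845). It was the only place in the 9 windows where both replicates fell below input.

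The smaller F1 subunits δ and ε belong to the central stalk under the head. ATP5D (ATP5F1D, δ) lies on the plus strand of chromosome 19 and had 11 regions in 6 stretches. Of its clusters, 8 of 12 were enriched in replicate 1 and 13 of 13 in replicate 2. The highest were at 1244325 to 1244404, with log2 folds of 4.08 and 5.31, and 1244405 to 1244446, with 3.77 and 5.49. The next piece, 1244447 to 1244510, had 4.02 and 4.27, so the replicates differed more at the first pair. At the 3′ end, 1244734 to 1244782 had 3.68 and 3.78. A stretch in the 5′ part also recurred, with 3.72 and 3.64 at 1242533 to 1242582 and 3.43 and 3.13 at 1242456 to 1242502. The 5′-most region, 1241961 to 1241986, was enriched in replicate 2 alone (2.70 and 3.45). The width-weighted mean of the gene was 3.33 in replicate 1 and 3.88 in replicate 2, the largest gap among the 9 genes.

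ATP5E (ATP5F1E, ε), on the minus strand of chromosome 20, had only 6 and 5 clusters, grouped in 3 places. Both ends were enriched in both replicates. At the 3′ end, the region at 57603800 to 57603897 had log2 folds of 3.96 and 4.18. Near the 5′ end, the 118-base region at 57607275 to 57607392 had 3.87 and 3.74, so the ends differed by less than 0.5 in either replicate. The clusters in the middle lay between 2.41 and 2.74 in replicate 1. In replicate 2 they lay at 2.47, 2.79 and 3.38, and only the 23-base region at 57605357 to 57605379 passed there.

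Subunit c forms the rotating ring in the membrane. ATP5G1, ATP5G2 and ATP5G3 encode the same mature protein behind different import presequences. These 3 genes had the 3 highest width-weighted mean log2 folds of the 9 when the replicates were averaged, although ATP5D was above ATP5G3 in replicate 2, and all were enriched at sites well away from the 3′ end as well as at it. No source used here states how reads that match more than 1 place were assigned. RefSeq's GRCh38 table lists 24 pseudogenes named for 6 of the 9 genes, with 8 for ATP5G1, 7 for ATP5A1, 5 for ATP5G2, 2 for ATP5E and 1 each for ATP5B and ATP5O. Values in the parts that a gene shares with such copies, or that the c-subunit genes share with each other, are therefore uncertain.

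ATP5G1 (ATP5MC1), on the plus strand of chromosome 17, had the highest folds. All 12 of its regions were enriched in both replicates, and 11 of 12 and 14 of 14 clusters passed. The 3′ end was a nearly unbroken run of enriched pieces. Region 46973118 to 46973135 had log2 folds of 5.53 and 6.64, or 6.09 ± 0.79 (SD, n = 2), 46.1-fold over input in the lower replicate. The next regions to the 3′ end, 46973136 to 46973163 and 46973164 to 46973213, had 6.34 and 6.10 in replicate 2. In replicate 1 a single cluster at 5.53 lies behind all of these. The regions before them had 5.23 and 6.18 (46973085 to 46973115), 4.75 and 5.87 (46973043 to 46973084), and 4.29 and 6.36 (46973017 to 46973042). Replicate 2 was higher at each of these 6.

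Upstream of the run, ATP5G1 had a second stretch at high folds. The region at 46972679 to 46972696 had log2 folds of 5.30 and 5.59. Its neighbour at 46972625 to 46972675 had 6.07 and 4.42, the opposite order of the replicates. Lower but recurring values stood at 46972518 to 46972595 (3.55 and 3.72), at 46971739 to 46971785 (3.19 and 3.64) and at 46971794 to 46971811 (3.73 and 3.93). The 5′-most region, 13 bases at 46970805 to 46970817, had 4.0 and 3.40. The single cluster that was not enriched, 4 bases wide in replicate 1, had 2.83.

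ATP5G2 (ATP5MC2), on the minus strand of chromosome 12, had the most regions, 18 in 7 stretches over 10895 bases. By stretches ATP5G1 had more, with 8. Of its clusters, 13 of 14 and 18 of 18 were enriched. At the 3′ end, 54058974 to 54059043 had log2 folds of 4.91 and 4.69, and 54059062 to 54059114 had 4.59 and 4.43. Both were at the −log10 p limit of 400 in both replicates. A second place about 4 kb upstream was nearly as high, with 4.34 and 3.82 at 54062941 to 54062991 and 3.85 and 4.39 at 54063028 to 54063117. Another place followed at 54063667 to 54063726, with 4.19 and 3.66. Farther upstream the values were 3.03 and 3.90 at 54066384 to 54066421. The 5′-most region, 54069839 to 54069868, reached 4.21 in replicate 2 and 2.86, just under the threshold, in replicate 1. The width-weighted means, 4.15 in each replicate, were the closest of any gene.

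ATP5G3 (ATP5MC3), on the minus strand of chromosome 2, had 12 regions in 7 stretches. Its highest region, at 5.64 in the authors' list, was exceeded only by ATP5G1 among the 9 genes. Of its clusters, 10 of 18 and 16 of 20 were enriched. The region at 176042902 to 176042969 had log2 folds of 5.14 and 5.60, or 5.37 ± 0.33 (SD, n = 2). The neighbours had 5.14 and 5.87 (176042970 to 176042985), 5.14 and 4.98 (176042986 to 176043039), and 4.83 and 4.26 (176043044 to 176043131). In replicate 1 a single cluster, 176042932 to 176043043, lies behind each value of 5.14, so these are not separate measurements. The region at 176042902 to 176042969 also overlapped another replicate 1 cluster, at 4.19 (176042901 to 176042931). About 900 bases from the 3′ end, 176043785 to 176043801 had 5.42 in replicate 1 but 3.27 in replicate 2, the least repeatable region of the set, with an SD of 1.52. In the middle, 176044830 to 176044872 had 3.27 and 3.35. Unlike the 5′ clusters of ATP5G1, those of ATP5G3 within 300 bases of the 5′ end were not enriched in either replicate. Their width-weighted means were 2.28 and 2.71.

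ATP5O (ATP5PO) encodes OSCP, the subunit that joins the peripheral stalk to the head. On the minus strand of chromosome 21, all 10 of its regions were enriched in both replicates, and they were spread over 12304 bases. The 126-base region at the 3′ end, 35275796 to 35275921, was highest, with log2 folds of 3.97 and 4.48. At 35276313 to 35276325 the values were 3.32 and 4.37, and at 35276254 to 35276300 they were 3.95 and 3.25. The others stood close to the threshold in both replicates. The 65-base region at the 5′ end, 35288035 to 35288099, had 3.39 in each. Between them, 35286759 to 35286769 had 3.43 and 3.39, 35284642 to 35284703 had 3.30 and 3.31, and 35279644 to 35279710 had 3.01 and 3.43. Replicate 2 alone had clusters below input, at −0.41 (35283396 to 35283437) and −1.58 (35280422 to 35280473). The width-weighted mean was 3.42 in replicate 1 and 2.89 in replicate 2.

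ATP5I (ATP5ME) encodes subunit e, a small membrane subunit that takes part in pairing of the enzyme. On the minus strand of chromosome 4, its clusters covered 142 and 163 bases, the least of the 9 genes. All 6 clusters were enriched in replicate 1 and 4 of 6 in replicate 2. The 6 regions formed 3 stretches with nearly equal folds. The region near the 5′ end, 668003 to 668058, had log2 folds of 3.39 and 3.56. Next, 667703 to 667738 had 3.58 and 3.51. At the 3′ end, 666260 to 666290 had 3.39 and 3.34. The clusters that missed the threshold in replicate 2 were 2 and 3 bases wide and had 2.94 each. The values at the 3′ end of ATP5I were thus no higher than those near its 5′ end.

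**Figure D2:**
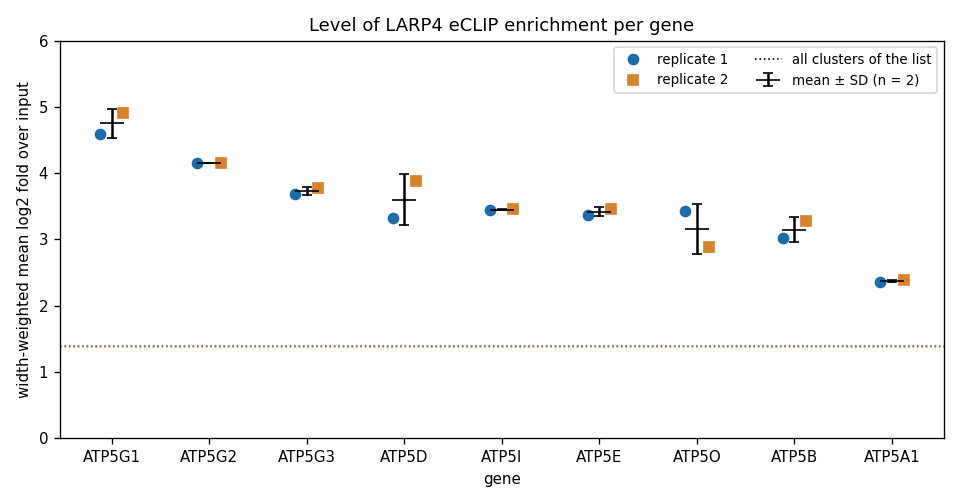
Width-weighted mean of the authors' log2 fold over input per gene, with replicate 1 as blue circles, replicate 2 as orange squares, and black marks for the mean ± SD (n = 2). The dotted lines, which nearly coincide, mark the same mean over all clusters of each list, 1.39 and 1.37. All 9 genes stand above them in both replicates, with ATP5G1 and ATP5G2 at the top and ATP5A1 at the bottom.

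To set the genes side by side, the log2 folds of each gene's clusters were averaged by cluster width. The mean over input was 4.75 ± 0.22 (SD, n = 2, here and below) for ATP5G1, or 26.9-fold, and 4.15 ± 0.0043 for ATP5G2, or 17.8-fold. ATP5G3 followed at 3.73 ± 0.06 and ATP5D at 3.60 ± 0.39. ATP5I had 3.45 ± 0.01, ATP5E 3.42 ± 0.06, ATP5O 3.16 ± 0.38 and ATP5B 3.15 ± 0.19. ATP5A1 was lowest at 2.37 ± 0.01, or 5.19-fold. Replicate values did not overlap between ATP5G1 and ATP5G2, between ATP5G2 and ATP5G3, or between ATP5B and ATP5A1, and each of these gaps was larger than the sum of both SDs. From ATP5G3 down to ATP5B, the replicate values of each gene overlapped those of the next, so neighbours there are not ordered. Both values of ATP5G3 still lay above both values of ATP5I, ATP5E, ATP5O and ATP5B, and ATP5D, ATP5I and ATP5E each lay wholly above ATP5B. With 2 values a gene, no exact permutation test can go below 0.33. Across the 9 genes the replicates' means had a Pearson's r of 0.91 and a Spearman's rho of 0.73, a description of genes measured in the same libraries.

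**Figure D3:**
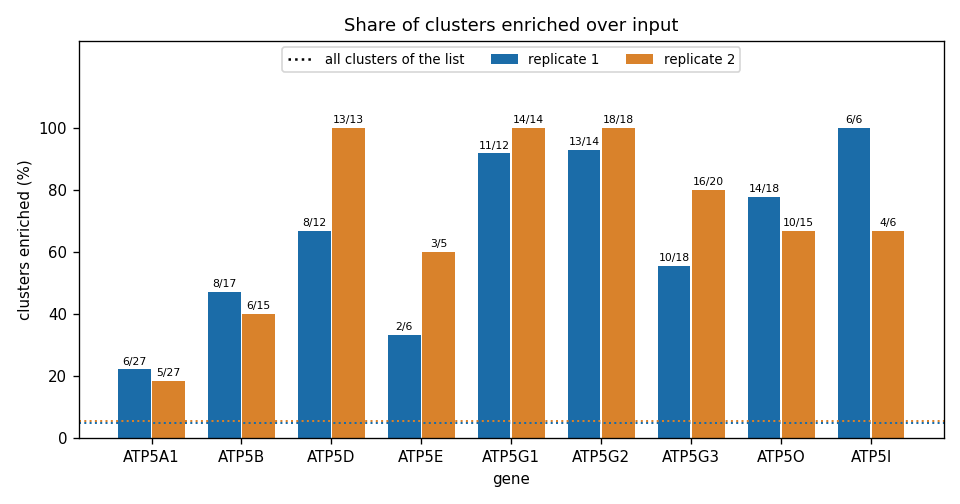
Percent of each gene's clusters that were enriched over input (log2 fold of at least 3 and −log10 p of at least 3), in replicate 1 (blue) and replicate 2 (orange), with enriched over total clusters above each bar. Dotted lines mark the share among all clusters, 5.01% and 5.5%. The lowest bars are those of ATP5A1, with 6 and 5 of 27 clusters.

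The share of enriched clusters showed a similar spread. It was above 50% in both replicates in 6 genes, ATP5D, ATP5G1, ATP5G2, ATP5G3, ATP5O and ATP5I. In replicate 2 every cluster of ATP5D, ATP5G1 and ATP5G2 passed. ATP5A1 had 22.2% and 18.5%, and ATP5B 47.1% and 40.0%. These genes for the α and β subunits also had long runs of unenriched clusters upstream of their 3′ ends. Clusters just inside and outside the threshold were close to each other: in ATP5O the lowest enriched clusters had log2 folds of 3.01 in both replicates, and the highest that missed in replicate 1 had 2.99.

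The 3′ end was the place that all 9 genes had in common. Distances are counted from the 3′ end of each gene's run of clusters, since no hg19 annotation was used here and regions could not be assigned to exons, introns or UTRs. Under 300 bases from that end, 21 of 22 clusters in replicate 1 (95.5%) and 29 of 29 in replicate 2 were enriched. Among loci with as many clusters as those of the 9 genes, 21.1% and 23.3% of clusters at that distance were enriched. From 300 to under 1000 bases the counts were 23 of 26 and 20 of 24, against 13.5% and 15.3%. At 1000 bases or more they were 34 of 82 (41.5%) and 40 of 80 (50.0%), against 3.77% and 4.4%. The width-weighted mean log2 fold was 4.38 and 4.72 in the first band, 3.85 and 3.95 in the second, and 2.66 beyond it in both replicates. Near the 3′ end lay 26 regions from all 9 genes, with a median of the authors' log2 fold of 4.72. The 39 regions at 1000 bases or more came from 7 genes, all but ATP5A1 and ATP5B, and had a median of 3.51. The loci of ATP5B, ATP5E and ATP5O run on beyond these genes' windows, so their 3′ or 5′ ends are not the same in the comparison with loci.

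**Figure D4:**
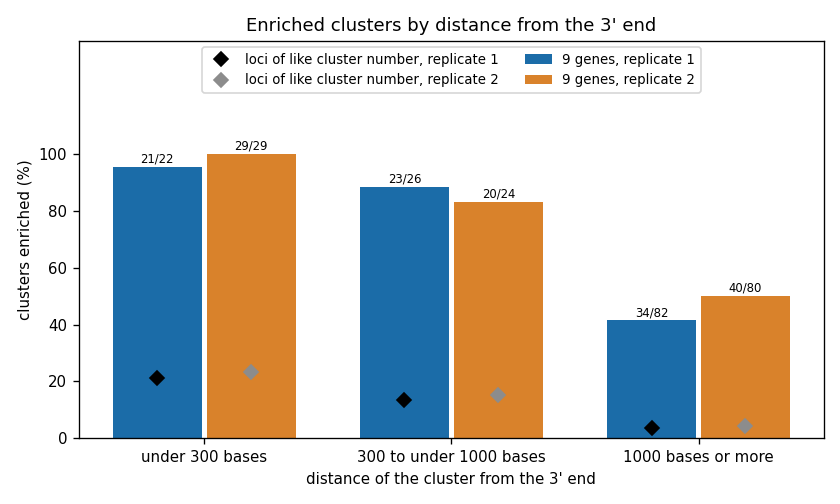
Percent of clusters enriched over input in bands of distance from the 3′ end, for the 9 genes in replicate 1 (blue bars) and replicate 2 (orange bars), with enriched over total clusters above each bar. Diamonds give the share at the same distance in all 7638 loci with 12 to 54 clusters. Both bars and diamonds fall from the first band to the last, and the bars stand above the diamonds in each band.

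The 5′ ends differed between genes. Within 300 bases of the 5′ end of the run, 7 of 19 clusters in replicate 1 and 10 of 18 in replicate 2 were enriched. The share at that distance over other loci was not computed. Enriched clusters were found near the 5′ end in both replicates in ATP5E, ATP5G1, ATP5O and ATP5I. In ATP5D and ATP5G2 they were enriched in replicate 2 alone. ATP5A1, ATP5B and ATP5G3 had none in either replicate, with 5′ means of 1.28 to 2.28 in replicate 1 and 1.65 to 2.71 in replicate 2. The 3′ mean was above the 5′ mean in both replicates in 8 of 9 genes, a count with no counterpart here over other loci. The gap was above 2 in both replicates in ATP5A1 (2.31 and 2.88), ATP5B (2.46 and 2.53) and ATP5G3 (2.61 and 2.19). It was 1.56 and 2.71 in ATP5G1 and 1.32 and 0.97 in ATP5D. In ATP5G2 it was 1.82 in replicate 1 but 0.24 in replicate 2. ATP5O had 0.52 and 0.91, ATP5E had 0.10 and 0.44, and ATP5I had −0.01 and −0.20.

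A second measure of place gave a mixed picture. With the 5′ end of the run set to 0 and the 3′ end to 1, regions could be set against clusters enriched in neither replicate in 6 genes. The other genes had no such clusters. Regions lay nearer the 3′ end by 0.77 in ATP5B, 0.66 in ATP5G3 and 0.36 in ATP5A1. The difference was 0.02 in ATP5O, −0.02 in ATP5E and −0.22 in ATP5I, where it rests on 1 unenriched cluster. The mean over the 6 genes was 0.26. From each replicate's own enriched and unenriched clusters it was 0.36 over 8 genes and 0.24 over 6.

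Almost all clusters lay on the genes' own strand. On the opposite strand of the 9 windows there was no cluster in replicate 1, 1 cluster in replicate 2, with a log2 fold of 3.33 in the ATP5A1 window but a −log10 p under the threshold, and no series-wide region.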

How the data were processed

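LARP4 eCLIP and size-matched input were made from HEK293 cells, 2 samples each. Per the submitters' processing notes, UMI-tools 1.0.0, cutadapt 1.14, STAR 2.7.6a, SAMtools 1.6 and hg19 were used. No source used here names the peak caller, its thresholds or the scaling for depth. The authors deposited 1 interval list per eCLIP replicate and a further list for the series, with strands. The deposited columns are taken as the −log10 p against input, which stops at 400, and the log2 fold against input. There is no header, so both were identified by their values. The lists give ratios without reads, so depth is unknown and a single fold has no interval.

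Intervals sharing at least 1 base with a gene's window on its strand were taken. Overlapping clusters were paired by the longest overlap. A region's replicate values are those of the cluster with the longest overlap in each replicate, so neighbouring regions can share a cluster's value. The code for pairing and calling was checked on shifted copies of replicate 1 clusters with planted enriched values. That check did not cover clusters that are split differently between replicates. Current symbols came from RefSeq's GRCh38 table, which matched all 9 genes, and no coordinates were taken from it. The members and lists were chosen with earlier results of these data known. Every gene of the rule is named, with its regions of the highest lower replicate value, and the text adds others chosen after their values were seen. Other ATP synthase genes were not analysed here. Scripts ran in Python 3.11.15 (pandas 2.3.3 for tables, SciPy 1.17.1 for intervals, matplotlib 3.10.9 for plots). Alternatives covered thresholds, window edges, merging, overlap, weighting and leaving out a replicate. The distance bands, the comparison with loci and the values at the ends were added after seeing the data.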

Additional observations from a re-analysis of the deposited data

How the results depend on the processing

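All 9 genes had an enriched cluster in both replicates at a log2 fold of at least 2 or 3, and 7 did at 4. Counts depended on the minimum fold. With a log2 fold of 4 required, 25.9% of clusters were enriched (63.5% over both replicates at 3), 32 regions (84) and 19 recurring clusters (71) were left, 78.4% of clusters passed under 300 bases from the 3′ end (98.0%), and the mean position difference was 0.53 over 8 genes (0.26 over 6). At 2, 89.7% of clusters passed, 108 recurred and the position difference was 0.45 over 3 genes. With touching enriched pieces merged, the share was 42.9%, with 46 regions and 33 recurring clusters. Unenriched clusters were still counted singly, which lowers that share. With 500 bases in place of 300, 94.2% passed near the 3′ end. The mean log2 fold over genes was 3.42 unweighted and 3.39 from medians, against 3.53. A −log10 p of at least 5, whole intervals inside the window and a window wider by 1000 bases left every count within 1.5 times. Without a replicate, the share enriched was 60.0% to 66.9% and the regions 76 to 83. A count was taken as moved beyond 1.5 times its value, and a share, a mean log2 fold or a position difference beyond 1 SD between the replicates. By these limits 14 of 53 alternatives moved a value. Of these measures only the position difference could readily change sign, and it stayed positive under every alternative. Leaving out a replicate always shifts the mean log2 fold by less than that SD. At these cluster numbers the same holds for the share enriched, in the windows and near the 3′ end. The count of genes enriched in both replicates, already 9 of 9, could not fall when a replicate was left out. For these measures leaving out a replicate could not count as moved, although those alternatives are among the 53. ATP5G1 and ATP5G2 stayed the highest and ATP5A1 the lowest under every weighting and without either replicate, while ATP5D ranked from 3 to 7. No paired analysis was possible because each interval's value is already a ratio of eCLIP over input and the inputs have no values of their own here.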
